A study of Mus musculus with 14 samples.

Results

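Cells that divide copy their chromosomes, condense them, attach them to a spindle of microtubules and then split. The genes that run the last of these steps are read mainly late in the cell cycle, so their RNA is used as a sign of dividing cells. A set of 34 names of mitosis and spindle genes was looked up in the deposited gene table by symbol. Of these, 33 were among the 24116 genes of the table, and 1, Anln2, was not found under that symbol. All 33 were tested, among 15637 genes that reached 10 normalized counts in 3 or more libraries. The set was chosen by name, with earlier results of these data known.

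RNA was sequenced from ventral spinal cord of mice with a demyelinating lesion. All mice carried Cx3cr1-CreER, in which tamoxifen activates a recombinase made under the promoter of Cx3cr1, which microglia and some other macrophages use. All received tamoxifen for 3 days, an injection of lysophosphatidylcholine (LPC, a lipid that strips myelin) into the ventral cord 4 to 6 weeks after that, and diphtheria toxin each day until tissue was taken 5 days after LPC. Ablated mice were Rosa26-iDTR+/-, with a diphtheria toxin receptor that the recombinase switches on, and non-ablated mice were Rosa26-iDTR-/-. Lesion and distal uninjured pieces were microdissected, which gave 4 ablated lesion, 3 non-ablated lesion, 4 ablated distal and 3 non-ablated distal libraries. Each library is described as a pool of 3 to 5 mice, males and females together, and libraries carry the numbers 1 to 14 of their titles. Distal pieces thus come from mice that also had a lesion, and no tissue without a lesion elsewhere was among the samples. The labels give each library its own age, from 8 to 15 months in ablated and 2 to 7 months in non-ablated mice, so age and genotype cannot be told apart. The age label grows by 1 month from each library number to the next.

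Libraries held 23601763 to 30844575 reads. A normalized count is a gene's read count scaled by the authors to the depth of its library. Genes are said to rise or fall where limma's Benjamini-Hochberg adjusted p, over all tested genes, was under 0.05, and log2 fold changes are of normalized counts + 1, given with their standard errors. Cx3cr1 itself checks the genotype labels. It had 155, 239.5, 212 and 336 normalized counts in ablated lesions, against 3892, 3657 and 4717 in non-ablated lesions, and 90.2, 21.7, 81.2 and 128 in ablated distal tissue, against 864, 1361 and 510.1 in non-ablated distal tissue. The groups did not overlap in either tissue (log2 fold changes -4.16 ± 0.51, limma adjusted p = 0.00301, and -3.62 ± 0.51, limma adjusted p = 0.00922). P2ry12 and P2ry13, which also define microglia, were listed at 0 in all 14 libraries, so they check nothing. The myelin genes Mbp and Mog and the neuron gene Snap25 were above 0 in every library. Distal library 9 of the ablated mice and distal library 5 and lesion library 6 of the non-ablated mice stood apart from their groups, libraries 5 and 6 with summed T and NK cell markers of 1048 and 998 against 11 to 315 in the other 12 libraries. Calls that these libraries decide are given with and without them.

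Mitosis is driven by the kinase CDK1 with cyclins A and B. The spindle checkpoint holds the anaphase-promoting complex in check until every kinetochore, the attachment plate on a chromosome, is bound to microtubules; CDC20 then activates that complex. Kinesin motors and crosslinking proteins build the spindle and its midzone, and the chromosomal passenger complex corrects wrong attachments and later takes part in cleavage. In spinal cord at this stage of LPC lesions, microglia, macrophages, oligodendrocyte progenitors and other cells are known to divide.

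Many late cell cycle genes share promoter letters that cell cycle factors bind: the cell cycle genes homology region (CHR), commonly TTTGAA or a close variant, which the DREAM and MMB-FOXM1 complexes use, and the CCAAT box, which NF-Y binds. The 300 bases around the first listed start (250 before and 50 after it) were searched on both strands in the RefSeq promoters of GRCm38.p6, in which 29 of the 33 members had an entry. TTTGAA was present in 22 of the 29 (75.9%), against 18.1% of all 27025 promoters of that length, and TTCGAA in 3 (10.3%), against 1.57%. The related form TTTAAA was present in 9 (31.0%), against 13.2%. CCAAT was present in 22 (75.9%), against 37.9%, and at least 2 CCAAT boxes in 16 (55.2%), against 12.2%. CCAAT together with either of the first 2 CHR forms was present in 19 (65.5%), against 7.70%. CCAAT boxes on opposite strands can overlap by 2 letters and were each counted, and a match describes the sequence, not a bound site. Of the promoters below, those of Ccnb2 and Bub1b belong to the members with the largest difference between ablated and non-ablated distal tissue, that of Top2a to the member with the smallest p in lesions, and that of Kif11 to a member that was high in both tissues. They are written in lower case, with the first 2 CHR forms and the CCAAT box in capitals on either strand.
Ccnb2 (chr9:70421505-70421804, minus strand): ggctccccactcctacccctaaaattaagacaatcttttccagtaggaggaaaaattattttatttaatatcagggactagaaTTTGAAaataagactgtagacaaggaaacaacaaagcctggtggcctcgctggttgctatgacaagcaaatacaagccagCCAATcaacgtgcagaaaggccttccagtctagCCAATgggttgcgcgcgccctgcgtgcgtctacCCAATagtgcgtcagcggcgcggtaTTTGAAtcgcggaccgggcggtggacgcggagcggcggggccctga
Bub1b (chr2:118597961-118598260, plus strand): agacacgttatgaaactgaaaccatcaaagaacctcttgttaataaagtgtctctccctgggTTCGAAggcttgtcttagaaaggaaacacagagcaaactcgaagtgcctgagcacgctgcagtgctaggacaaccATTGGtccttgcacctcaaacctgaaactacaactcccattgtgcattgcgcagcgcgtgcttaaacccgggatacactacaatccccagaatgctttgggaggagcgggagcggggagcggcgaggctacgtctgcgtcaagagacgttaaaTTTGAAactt
Top2a (chr11:99024140-99024439, minus strand): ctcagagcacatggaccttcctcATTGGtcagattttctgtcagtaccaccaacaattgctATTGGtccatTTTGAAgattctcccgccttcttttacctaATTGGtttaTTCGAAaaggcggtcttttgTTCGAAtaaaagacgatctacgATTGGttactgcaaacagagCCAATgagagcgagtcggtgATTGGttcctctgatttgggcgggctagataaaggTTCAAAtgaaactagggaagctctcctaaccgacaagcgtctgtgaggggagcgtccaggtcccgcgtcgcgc
Kif11 (chr19:37376132-37376431, plus strand): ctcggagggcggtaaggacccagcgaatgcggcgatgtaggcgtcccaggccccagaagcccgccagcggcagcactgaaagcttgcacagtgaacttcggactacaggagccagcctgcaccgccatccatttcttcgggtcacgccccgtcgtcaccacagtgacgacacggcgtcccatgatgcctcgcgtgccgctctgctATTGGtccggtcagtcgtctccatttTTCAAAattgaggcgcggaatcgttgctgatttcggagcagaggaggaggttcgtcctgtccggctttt
Ccnb2 holds 3 CCAAT boxes and 2 CHR motifs, and Top2a holds 6 and 4. Bub1b holds 1 CCAAT box and 2 CHR motifs. Kif11 holds 1 of each, so both motifs were also present in the promoter of a member that passed the lesion test in neither genotype.

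Most members were low in distal tissue and high in lesions. The median over the 33 members, as log2 (normalized count + 1), was 7.80 to 8.99 in the ablated lesion libraries, 8.73 to 9.44 in the non-ablated lesion libraries, 5.30 to 6.10 in the ablated distal libraries and 4.59 to 4.75 in the non-ablated distal libraries. By this median the non-ablated lesions were highest, overlapping with the ablated lesions at 1 library, number 6. The 2 distal groups did not overlap, the ablated one being higher. Over all 14 libraries, 21 members were highest in a non-ablated lesion library, 8 in an ablated lesion library, 2 in an ablated distal library and 2 in a non-ablated distal library.

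Spread was larger in distal tissue, where most members had lower counts than in lesions. The median member's SD on the log2 scale was 0.50 in ablated lesions, 0.29 in non-ablated lesions, 1.31 in ablated distal tissue and 0.95 in non-ablated distal tissue, against 0.40, 0.24, 0.66 and 0.53 over all tested genes in the same groups. Across the 33 members, Pearson's r between libraries of a group was 0.918 to 0.967 for ablated and 0.976 to 0.990 for non-ablated lesions, and 0.439 to 0.793 for ablated and 0.644 to 0.813 for non-ablated distal tissue. Members are not independent of each other, so these values only describe how alike the libraries were. In lesions the spread was largely shared: library 12 was the lowest ablated lesion library for 26 members, library 8 the highest for 21, and library 6 was the lowest non-ablated lesion library for 30.

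**Figure D1:**
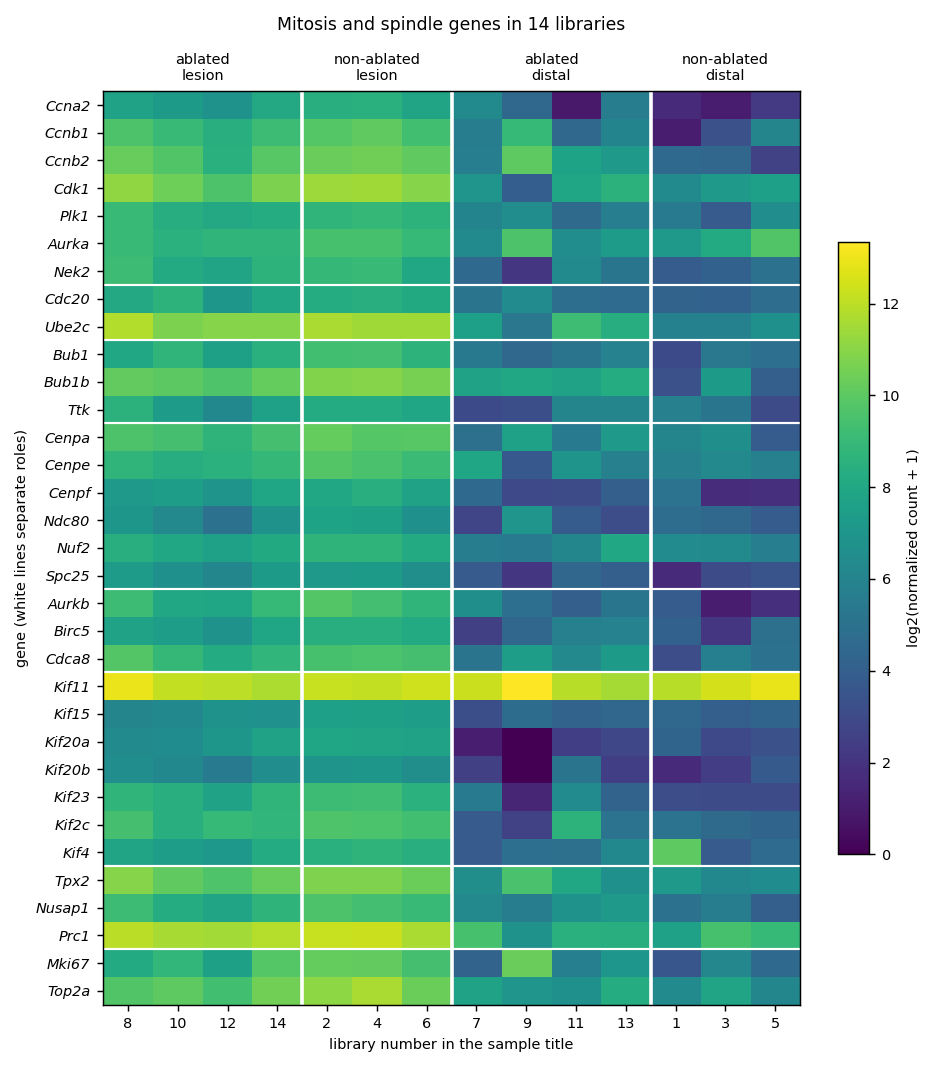
Log2 (normalized count + 1) of each of the 33 members (down the page, by role) in each of the 14 libraries (across, by group), as colour. Lesion columns are high for nearly all members, Kif11 is high in every column, and distal library 9 is high for some members and low for others.

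Per kb of exon, the most abundant members in lesions were Ube2c, the ubiquitin-conjugating enzyme of the anaphase-promoting complex (879 normalized counts per kb in ablated and 1139 in non-ablated lesions), Kif11 (671 and 652) and Ccnb2 (554 and 814). Prc1 followed with 416 and 527 per kb. The least abundant were Kif15 (8.12 and 16.8), Kif20b (10.9 and 16.7) and Cenpf (11 and 17). Exon lengths are those of the union of GENCODE M21 exons. In all, 9 members share exon bases with a gene on the opposite strand (Ccna2, Nek2, Cdc20, Ube2c, Cdca8, Kif20a, Kif4, Nusap1 and Prc1). Whether reads were counted by strand is not given in the sources used here, so their values are uncertain to that extent, most for Kif20a, which shares 1271 bases with Cdc23, Prc1, which shares 911 with Rccd1, and Kif4, which shares 832 with Pdzd11.

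The lesion response, lesion set against distal tissue of the same genotype, asks which of these genes respond to demyelination with and without ablation. In ablated mice 27 of the 33 members rose and none fell, where 16.1% of all tested genes rose (29.9% changed in either direction). Their median log2 fold change was 2.75, against 0.047 over all tested genes. In non-ablated mice 30 of 33 rose and none fell, where 14.7% of all tested genes rose (28% changed in either direction), with a median of 4.28 against 0.072. The lesion and distal libraries did not overlap for 25 members in ablated mice (16.3% of all genes were separate and higher) and for 30 in non-ablated mice (26.1%). Without distal library 9, 31 members rose in ablated mice. Fits with a single library left out called 3661 to 4742 of all genes there, in either direction, against 4678 with all libraries. Without distal library 5 and lesion library 6, 28 rose in non-ablated mice. The settings that include this fit called 2989 to 6109 of all genes, in either direction, against 4374 with all libraries. No label ties a lesion piece to a distal piece, so these p-values ignore any pairing.

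**Figure D2:**
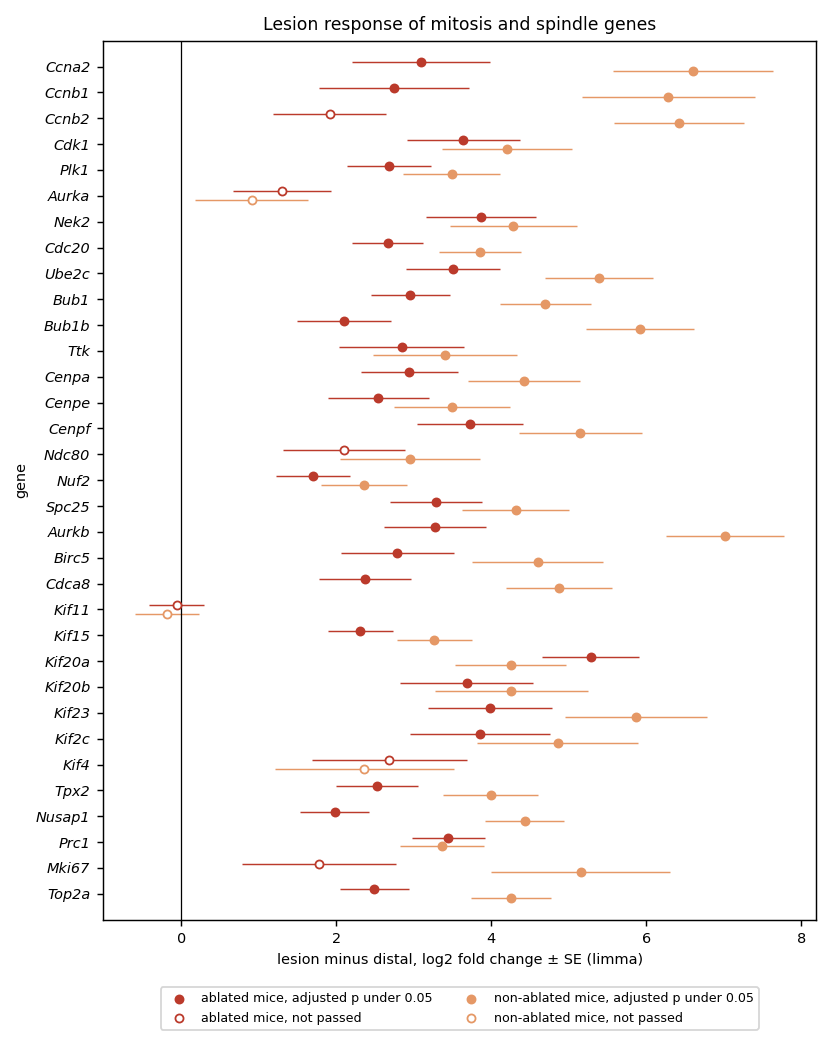
Log2 fold change of lesion over distal tissue for each of the 33 members, by role, in ablated and in non-ablated mice. Points are limma estimates and bars their standard errors. Nearly all estimates lie to the right of 0 in both genotypes, with Kif11 near 0.

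Markers of several cell types changed in the same tissue. In ablated mice all 12 pan-macrophage markers rose in lesions, with summed counts of 695039 to 1070704 in lesions against 11160 to 64903 in distal tissue, and in non-ablated mice 10 of 12 rose, with 495017 to 713297 against 32295 to 56028. Of 8 fibroblast markers, 7 rose in each genotype (31725 to 89840 against 2406 to 4163 in ablated mice, and 41137 to 78441 against 2058 to 6687 in non-ablated mice). Homeostatic microglia markers rose for 5 of 10 tested in each genotype, while 2 fell in ablated and 0 in non-ablated mice. Infiltrating monocyte markers rose for 6 of 9 in ablated and 4 of 9 in non-ablated mice, and 0 fell. All 10 mature oligodendrocyte markers and all 10 astrocyte markers fell in both genotypes. Among all tested genes, 13.8% fell in ablated and 13.3% in non-ablated mice. Of 9 tested oligodendrocyte progenitor markers, 4 rose in ablated mice and 1 in non-ablated mice. Their part in the rise of the mitosis genes was not tested. In tissue RNA, more cells of a type and more RNA per cell cannot be told apart.

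Among the cyclins, CDK1 and the mitotic kinases, 5 of 7 rose in ablated and 6 of 7 in non-ablated mice. Cdk1, the kinase that drives entry into mitosis (Entrez 12534; chromosome 10, 69335146 to 69352912), had 2254, 1373, 801 and 1696 normalized counts in ablated lesions, against 122, 15.0, 232 and 379 in ablated distal tissue. In non-ablated mice it had 2668, 2764 and 1913 in lesions, against 79.9, 149 and 186 in distal tissue. Every lesion library was above every distal one in both genotypes, with log2 fold changes of 3.64 ± 0.73 (limma adjusted p = 0.00163) in ablated and 4.20 ± 0.84 (limma adjusted p = 0.00189) in non-ablated mice. Plk1, the polo-like kinase of spindle poles and kinetochores, rose by 2.68 and 3.49 on the log2 scale in the same order (limma adjusted p = 0.00163 and 0.000771), and Nek2, a kinase that helps centrosomes separate, by 3.87 and 4.28 (limma adjusted p = 0.000814 and 0.00131).

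Ccna2, cyclin A of S phase and early mitosis (Entrez 12428; chromosome 3, 36564865 to 36573038), had 207, 153, 110.5 and 265 normalized counts in ablated lesions, against 80.7, 21.7, 0.913 and 49.2 in ablated distal tissue, and 345, 357 and 223 in non-ablated lesions, against 2.0, 1.1 and 3.82 in non-ablated distal tissue. It rose by 3.10 ± 0.89 (limma adjusted p = 0.0163) in ablated and 6.60 ± 1.03 (limma adjusted p = 0.00027) in non-ablated mice, although the call in ablated mice was lost without lesion library 14 (2.90 ± 1.00, limma adjusted p = 0.0514) and with only the ablated groups in the fit (limma adjusted p = 0.0507). Without distal library 11, its lowest, the response in ablated mice was 1.95 ± 0.54. Ccnb1, cyclin B1 (Entrez 268697; chromosome 13, 100778739 to 100786486), had 774, 513, 341 and 567 in ablated lesions, against 49.8, 499.5, 21.9 and 64.3 in ablated distal tissue. The high distal value is that of library 9, so the groups overlapped. It had 910.1, 1079 and 627 in non-ablated lesions, against 0.998, 8.81 and 66.2 in non-ablated distal tissue, without overlap. Its rise of 2.75 ± 0.97 in ablated mice stood just inside the threshold (limma adjusted p = 0.0444) and passed in 8 of 20 alternative settings, without library 9 among them, while that of 6.28 ± 1.11 in non-ablated mice (limma adjusted p = 0.000754) passed in all 18.

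Ccnb2, cyclin B2 (Entrez 12442; chromosome 9, 70407689 to 70421554), had 1234, 843, 361 and 954 normalized counts in ablated lesions, against 52.2, 1047, 214 and 146 in ablated distal tissue, and 1269.7, 1387 and 1079.7 in non-ablated lesions, against 23.0, 19.8 and 5.09 in non-ablated distal tissue. Library 9 lay within the range of the ablated lesions. The log2 fold change in ablated mice was 1.92 ± 0.73 and did not pass (limma adjusted p = 0.0613); without library 9 it was 2.70 ± 0.57 and passed (limma adjusted p = 0.00266). In non-ablated mice it rose by 6.42 ± 0.84 (limma adjusted p = 6.73e-05). Aurka, the Aurora kinase of the spindle poles, was the member of this role that passed in neither genotype. It had 529.7, 373, 427 and 425 in ablated lesions, against 79.5, 782, 91.3 and 168 in ablated distal tissue, and 694, 716 and 488 in non-ablated lesions, against 151, 283 and 852 in non-ablated distal tissue. A single distal library in each genotype, 9 and 5, was above the lesion libraries, and without library 9 the response in ablated mice was 2.02 ± 0.47 and passed (limma adjusted p = 0.005), against 1.30 ± 0.63 (limma adjusted p = 0.141) with it. In non-ablated mice the response was 0.91 ± 0.73 (limma adjusted p = 0.396), and 1.59 ± 0.73 without library 5, which did not pass either (limma adjusted p = 0.136). With array weights, which give less weight to libraries that deviate, Aurka passed as higher in both genotypes (limma adjusted p = 0.00419 and 0.0217).

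Both partners of the anaphase-promoting complex rose in both genotypes. Ube2c (Entrez 68612; chromosome 2, 164769929 to 164772902) had 3589, 1656, 1926 and 1974 normalized counts in ablated lesions, against 183, 38.4, 583 and 319 in ablated distal tissue, and 3248, 2801 and 2836 in non-ablated lesions, against 56.9, 57.3 and 102 in non-ablated distal tissue. The groups did not overlap, and the log2 fold changes were 3.51 ± 0.60 (limma adjusted p = 0.000505) and 5.39 ± 0.70 (limma adjusted p = 6.02e-05). Cdc20, the activator of that complex, rose by 2.66 ± 0.46 in ablated and 3.86 ± 0.53 in non-ablated mice (limma adjusted p = 0.000478 and 9.29e-05).

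All 3 checkpoint kinases and regulators rose in both genotypes. Bub1b, which encodes BUBR1, a part of the inhibitor of CDC20 (Entrez 12236; chromosome 2, 118598202 to 118641592), had 1128, 1024, 811 and 1189 normalized counts in ablated lesions, against 209, 249, 203 and 310.1 in ablated distal tissue. In non-ablated mice it had 1799, 1974 and 1559.8 in lesions, against 8.99, 154 and 15.3 in distal tissue. All 4 ablated distal libraries were above all 3 non-ablated distal libraries, and all 4 ablated lesion libraries were below all 3 non-ablated ones. The responses were 2.10 ± 0.61 (limma adjusted p = 0.0168) in ablated and 5.92 ± 0.70 (limma adjusted p = 2.95e-05) in non-ablated mice. Bub1, the kinase that recruits it, rose by 2.96 and 4.69 (limma adjusted p = 0.000501 and 4.67e-05). Ttk, the kinase MPS1 that starts checkpoint signalling, rose by 2.84 and 3.40 (limma adjusted p = 0.0147 and 0.0134), and its call in non-ablated mice was lost without distal library 5 (limma adjusted p = 0.0588). With array weights the response of Ttk in ablated mice was 1.75 ± 0.60 and passed.

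Of the 6 centromere and kinetochore genes, 5 rose in ablated and 6 in non-ablated mice. Cenpa, the histone variant that marks the centromere, rose by 2.94 ± 0.63 (limma adjusted p = 0.00252) and 4.42 ± 0.72 (limma adjusted p = 0.000403). Cenpf, a large outer kinetochore protein, had 118 to 242 normalized counts in ablated lesions, against 6.68 to 22.5 in ablated distal tissue, and 207 to 331 in non-ablated lesions, against 2.2 to 32.9 in non-ablated distal tissue, with rises of 3.73 and 5.15 (limma adjusted p = 0.000843 and 0.000243). Cenpe, a kinetochore kinesin, rose by 2.54 and 3.49 (limma adjusted p = 0.00807 and 0.003). Ndc80, Nuf2 and Spc25 encode 3 subunits of the complex that grips microtubules. Spc25 rose by 3.29 and 4.31 (limma adjusted p = 0.000738 and 0.00032) and Nuf2, with the smallest response of the role, by 1.70 and 2.36 (limma adjusted p = 0.0141 and 0.00529). The Nuf2 groups overlapped in ablated mice, and its call there was lost with array weights (0.98 ± 0.43, limma adjusted p = 0.0893) and with edgeR (1.30, edgeR adjusted p = 0.0682). Ndc80 had 5.93, 124, 13.7 and 8.04 in ablated distal tissue, the high value being library 9, against 135, 76.6, 31.6 and 113 in ablated lesions. Its response did not pass in ablated mice (2.10 ± 0.78, limma adjusted p = 0.0569) but did without library 9 (3.02 ± 0.55, limma adjusted p = 0.000881). In non-ablated mice Ndc80 rose by 2.95 ± 0.91 (limma adjusted p = 0.0251), a call lost without lesion library 2 or 4 or distal library 3 or 5 (limma adjusted p = 0.0525 to 0.0826).

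Of the chromosomal passenger complex, 3 of 3 members rose in both genotypes. Aurkb, its Aurora kinase (Entrez 20877; chromosome 11, 69045624 to 69051664), had 571, 249.9, 228 and 492 normalized counts in ablated lesions, against 101, 28.4, 15.5 and 35.7 in ablated distal tissue. In non-ablated mice it had 873, 649.5 and 424 in lesions, against 14.0, 1.1 and 2.54 in distal tissue, where 2 of 3 libraries were under 3 counts. It rose by 3.28 ± 0.66 (limma adjusted p = 0.00163) in ablated and by 7.01 ± 0.76 (limma adjusted p = 1.42e-05) in non-ablated mice. The response of Aurkb in non-ablated mice was the largest of any member in the fit reported. That rank depends on the setting: over all settings Aurkb ranged from 5.40 to 7.83, and Ccnb2 from 5.67 to 6.78. Birc5, which encodes survivin, rose by 2.79 and 4.60 (limma adjusted p = 0.00966 and 0.000977), and Cdca8, which encodes borealin, by 2.37 and 4.87 (limma adjusted p = 0.00699 and 0.000114).

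Of the 7 spindle kinesins, 5 rose in each genotype. Kif20a, a motor of the midzone (Entrez 19348; chromosome 18, 34624624 to 34633277), had the largest response of ablated mice in the fit reported. It had 81.4, 90.2, 131 and 203 normalized counts in ablated lesions, against 1.19, 0, 4.56 and 6.26 in ablated distal tissue, and 226, 219 and 206 in non-ablated lesions, against 19.0, 6.61 and 8.91 in non-ablated distal tissue. It rose by 5.28 ± 0.62 (limma adjusted p = 2.17e-05) and 4.25 ± 0.72 (limma adjusted p = 0.000522). Kif20a was the only member for which every ablated distal library lay below every non-ablated distal library. Kif23, the motor of centralspindlin, rose by 3.98 and 5.86 (limma adjusted p = 0.00156 and 0.000281), Kif20b by 3.68 and 4.26 (0.00439 and 0.00496), and Kif2c, a microtubule depolymerase, by 3.85 and 4.85 (0.00477 and 0.00306). Kif2c overlapped in ablated mice, where distal library 11 stood at 392 normalized counts, and its call there was lost with edgeR (2.08, edgeR adjusted p = 0.101). With a pseudocount of 10 the responses of Kif20a and Kif20b in ablated mice were 3.34 ± 0.35 and 2.25 ± 0.44, and both passed. Kif15, which can share the work of KIF11, rose by 2.31 and 3.26 (limma adjusted p = 0.000738 and 0.000178).

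Kif11, the motor that pushes the spindle poles apart (Entrez 16551; chromosome 19, 37376382 to 37421863), did not follow the other members. It had 7933, 4487, 4213 and 3402 normalized counts in ablated lesions, 4735, 4508 and 5339.8 in non-ablated lesions, 4911, 10446, 3889 and 3006 in ablated distal tissue and 3839, 5694 and 7594 in non-ablated distal tissue. It was high in all 14 libraries and the groups overlapped in every comparison. Its responses were -0.06 ± 0.35 (limma adjusted p = 0.924) in ablated and -0.18 ± 0.41 (limma adjusted p = 0.785) in non-ablated mice, and their sign changed under several settings. Kif4, a chromosome kinesin (Entrez 16571; chromosome X, 100626065 to 100727271), had 220.4, 174, 139 and 296 in ablated lesions and 355, 417 and 348 in non-ablated lesions, against 13.1, 28.4, 29.2 and 74.2 in ablated and 1061, 13.2 and 24.2 in non-ablated distal tissue. The value of 1061 is that of distal library 1. With it the response in non-ablated mice did not pass (2.36 ± 1.16, limma adjusted p = 0.151), and without it Kif4 rose by 4.30 ± 0.63 (limma adjusted p = 0.000355). In ablated mice the groups did not overlap, but the response did not pass (2.69 ± 1.00, limma adjusted p = 0.0576).

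The spindle assembly factor Tpx2, the microtubule binder Nusap1 and the midzone crosslinker Prc1 rose in both genotypes. Prc1 (Entrez 233406; chromosome 7, 80294445 to 80316259) had 3991, 3130.3, 2847 and 3722 normalized counts in ablated lesions, against 698, 115, 353 and 325 in ablated distal tissue, and 4830.1, 4942 and 3225 in non-ablated lesions, against 198, 708 and 497 in non-ablated distal tissue, without overlap. Its responses were close, at 3.45 ± 0.47 (limma adjusted p = 6.93e-05) and 3.37 ± 0.54 (limma adjusted p = 0.000338). Tpx2 rose by 2.53 and 3.99 (limma adjusted p = 0.00221 and 0.000237) and Nusap1 by 1.98 and 4.43 (limma adjusted p = 0.00356 and 2.48e-05).

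Top2a, the topoisomerase that untangles chromosomes (Entrez 21973; chromosome 11, 98992947 to 99024199), had 834, 1034, 637 and 1463 normalized counts in ablated lesions, against 209, 122, 102 and 303 in ablated distal tissue, and 2173, 3221 and 1313 in non-ablated lesions, against 83.9, 220.4 and 70.0 in non-ablated distal tissue. It rose in both genotypes (2.49 ± 0.45, limma adjusted p = 0.000687, and 4.25 ± 0.51, limma adjusted p = 3.57e-05). Mki67, the chromosome coat protein Ki-67 used to stain dividing cells (Entrez 17345; chromosome 7, 135689784 to 135716450), had 282, 457, 192 and 923 in ablated lesions, against 17.8, 1275, 53.8 and 126 in ablated distal tissue. Distal library 9 had more Mki67 than any lesion library. In non-ablated mice it had 1186, 1139 and 692 in lesions, against 11.0, 71.6 and 22.9 in distal tissue. Mki67 rose in non-ablated mice (5.15 ± 1.15, limma adjusted p = 0.00395). In ablated mice its response of 1.78 ± 1.00 did not pass (limma adjusted p = 0.204), but without library 9 it was 2.94 ± 0.72 and passed (limma adjusted p = 0.00675).

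**Figure D3:**
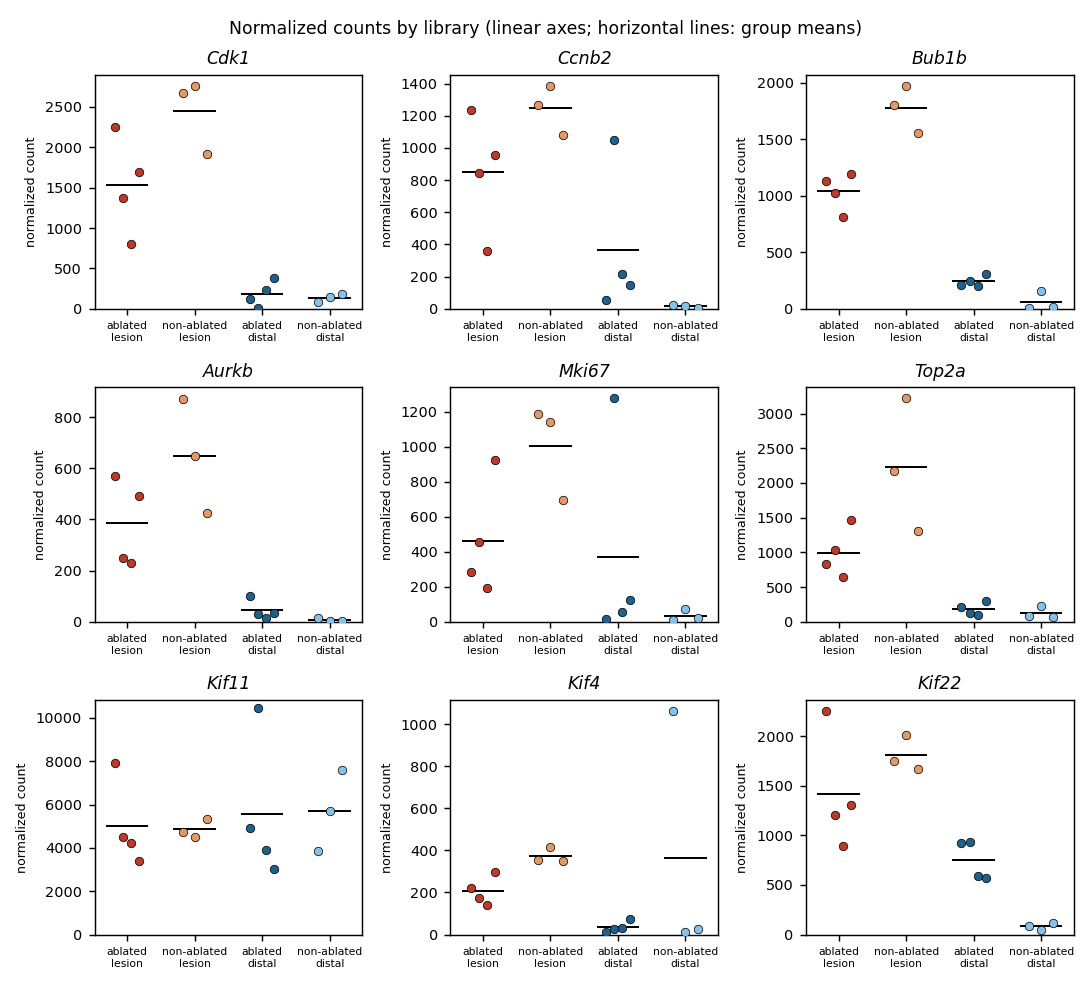
Normalized counts per library of 8 members that differ in pattern and of Kif22, by group, on linear axes with the group means as horizontal lines. Distal library 9 lies at 1275 for Mki67 and 1047 for Ccnb2, and Kif11 overlaps between all 4 groups.

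Ablated lesions were then set against non-ablated lesions, the comparison the series title names. The log2 fold change was below 0 for all 33 members, between -1.33 and -0.03, and its median was -0.68, against 0.014 over all tested genes. None passed the test (limma), 2 had an unadjusted p under 0.05, where 7.21% of all genes had, and edgeR and DESeq2 on the recovered reads also called none. Over all genes limma called 0.032% higher and 0.262% lower. The groups were separate and lower in ablated lesions for 8 of 33 members, where 8.36% of all genes were, and separate and higher for 0, where 7.62% were. The 8 were Bub1b, Cenpa, Cenpe, Birc5, Kif15, Kif20a, Kif20b and Kif4.

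Top2a averaged 992 ± 353 normalized counts in ablated lesions (SD, n = 4) and 2236 ± 955 in non-ablated lesions (SD, n = 3), a difference of -1.14 ± 0.48 on the log2 scale (limma adjusted p = 0.588), and the groups overlapped. Kif15 averaged 89.5 ± 22.1 in ablated lesions (SD, n = 4) and 185 ± 9.87 in non-ablated lesions (SD, n = 3), a difference of -1.07 ± 0.45 (limma adjusted p = 0.589). The lowest estimate was that of Mki67 (-1.33 ± 1.08, limma adjusted p = 0.999), with 463 ± 325 in ablated lesions (SD, n = 4) and 1006 ± 272 in non-ablated lesions (SD, n = 3). With array weights, Top2a, Kif15 and Nusap1 passed as lower (limma adjusted p = 0.0339, 0.033 and 0.0298). Alternative settings called 2 to 1013 genes in all, against 46 in the fit reported. The share of all genes called with array weights is not given here, so these calls cannot be set against it. The smallest differences were those of Kif11 (-0.03 ± 0.38), Spc25 (-0.17 ± 0.64) and Nek2 (-0.19 ± 0.76).

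**Figure D4:**
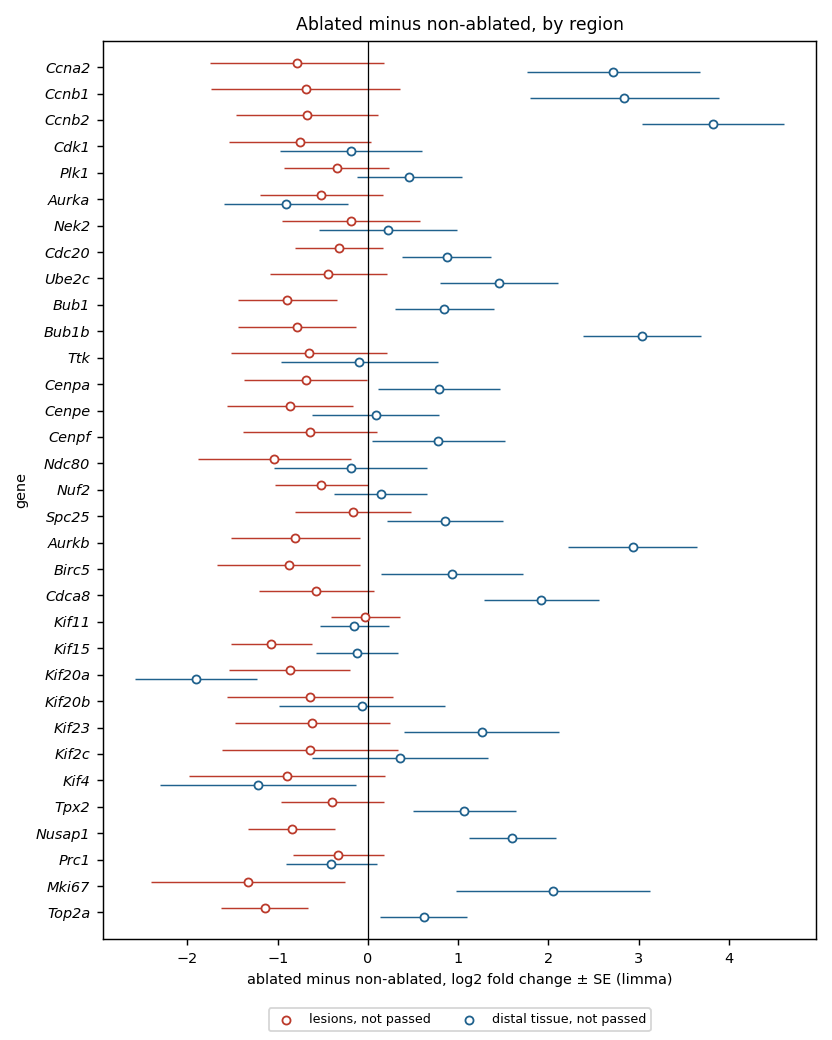
Log2 fold change of ablated over non-ablated tissue for each of the 33 members, by role, in lesions and in distal tissue. Points are limma estimates and bars their standard errors. In lesions every estimate is below 0, down to -1.33, and in distal tissue they range from -1.90 to 3.82; none passed the test.

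Marker sums also differed between these lesions. Homeostatic microglia markers summed to 37832 to 88652 in ablated lesions, against 133958 to 168736 in non-ablated lesions, without overlap, and 6 of 10 tested markers fell. Of 9 infiltrating monocyte markers, 0 passed the test with limma (1 at an unadjusted p under 0.05), 5 were above 0 and 4 below, and their median log2 fold change was 0.083. Their sum of 19783 to 34270, against 49698 to 70315, did not overlap, but most of it was Fn1, and the other 8 summed to 5158 to 8964 in ablated lesions, against 4698 to 9316 in non-ablated lesions. Of 12 pan-macrophage markers, 1 fell, 10 estimates were below 0, 5 were separate and lower, 1 was separate and higher, and the median was -0.50. Their sum of 695039 to 1070704, against 495017 to 713297, was mostly Lyz2 in ablated lesions, and the other 11 summed to 220801 to 373178 in ablated lesions, against 284958 to 408606 in non-ablated lesions, with overlap. None of the 9 tested oligodendrocyte progenitor markers passed (limma), but 8 estimates were above 0 and 5 had an unadjusted p under 0.05. The groups were separate and higher for 4 and lower for 1, with sums of 14428 to 22023, against 13780 to 14884. All 10 mature oligodendrocyte, 10 astrocyte and 10 neuron estimates were above 0, and none passed. At an unadjusted p under 0.05 there were 6, 5 and 1, where 7.21% of all genes were. Astrocyte sums of 91409 to 148453, against 68229 to 91036, did not overlap. Of 8 fibroblast estimates, 6 were below 0. The defining T cell gene Cd3e was at 0 in 8 of the 14 libraries. Their part in the lower mitosis values was not tested.

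In distal tissue, ablated set against non-ablated, the members did not move together. Log2 fold changes were positive for 23 of 33 and negative for 10, and their median was 0.78. None passed with limma or edgeR (9 at an unadjusted p under 0.05, where 9.69% of all genes were), where limma called 0.0384% of all genes higher and 0.326% lower. DESeq2 called 7 members, all higher. Alternative settings called 0 to 532 genes in all, against 57 with limma as reported. The share of all genes that DESeq2 called is not given here, so its 7 calls cannot be set against it. The groups were separate and higher in ablated tissue for 4 members, Ccnb2, Bub1b, Aurkb and Nusap1 (2.39% of all genes), and separate and lower for 1, Kif20a (3.1%). Without distal library 3, the median was 0.32. Some values rest on few reads. Kif20a and Kif20b were listed at 0 in library 9, where a 0 allows up to 3 reads.

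Ccnb2 averaged 365 ± 459.8 normalized counts in ablated distal tissue (SD, n = 4) and 16.0 ± 9.54 in non-ablated distal tissue (SD, n = 3), a difference of 3.82 ± 0.79 (limma adjusted p = 0.0575). Without library 9, its highest library, it was 3.04 ± 0.61 and passed (limma adjusted p = 0.0433); it also passed without distal library 1 or 7 (limma adjusted p = 0.047 and 0.0196). Bub1b averaged 243 ± 49.5 in ablated distal tissue (SD, n = 4) and 59.5 ± 82.1 in non-ablated distal tissue (SD, n = 3), a difference of 3.03 ± 0.66 (limma adjusted p = 0.0685). Without distal library 3, the 1 non-ablated library with over 100 counts, it was 4.24 ± 0.31 (limma adjusted p = 6.76e-05). Library 3 is singled out here by its own Bub1b count, so that fit gives no separate support. Aurkb averaged 45.1 ± 38.1 in ablated distal tissue (SD, n = 4) and 5.87 ± 7.05 in non-ablated distal tissue (SD, n = 3), a difference of 2.93 ± 0.71 (limma adjusted p = 0.121), which passed without distal library 1 (limma adjusted p = 0.0246). Library 1 held the highest non-ablated distal count of Aurkb, so this call gives no separate support either. Nusap1 differed by 1.60 ± 0.48 (limma adjusted p = 0.245) and Kif20a by -1.90 ± 0.67 (limma adjusted p = 0.345). In the same libraries homeostatic microglia markers summed to 28220 to 171431 in ablated and 52190 to 101290 in non-ablated distal tissue, pan-macrophage markers to 11160 to 64903 and 32295 to 56028. Marker by marker, the median log2 fold change was -1.60 over the 10 tested microglia markers, of which 2 fell, and -1.50 over the 12 macrophage markers, of which 2 fell. Library 9 was highest for the microglia and macrophage sums among the ablated distal libraries; the part of these cells in the mitosis values was not tested.

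The interaction asks whether the lesion response differed between genotypes. It was negative, the response being smaller in ablated mice, for 28 of 33 members, with a median of -1.19. None passed with limma or edgeR (10 at an unadjusted p under 0.05, where 5.66% of all genes were), where limma called 0.0128% of all genes. DESeq2 called 4 members, all negative. Alternative settings called 0 to 97 genes in all, against 2 with limma as reported. The share of all genes that DESeq2 called is not given here either. The estimates were largest for Ccnb2 (-4.50 ± 1.11, limma adjusted p = 0.518), Bub1b (-3.82 ± 0.93, limma adjusted p = 0.501) and Aurkb (-3.73 ± 1.00, limma adjusted p = 0.558), the members whose distal values differed most. The counts of 30 and 27 calls are thus not shown to differ between genotypes. Without distal library 3, Bub1b passed (-5.02 ± 0.42, limma adjusted p = 0.000285), but that fit again drops its highest non-ablated distal count. The lesion and ablation comparisons share libraries and are not independent of each other.

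Other genes of mitosis were looked up from a list of 86 names, of which 80 were tested. In ablated mice 41 rose and 4 fell in lesions, where 16.1% of all genes rose and 13.8% fell, with a median of 1.47. In non-ablated mice 50 rose and 4 fell, where 14.7% rose and 13.3% fell, with a median of 2.28. Pbk, a mitotic kinase, rose by 4.04 ± 0.54 (limma adjusted p = 6.1e-05) in ablated mice, and Ect2, the exchange factor that starts cleavage, by 2.39 ± 0.39 (limma adjusted p = 0.000308) in ablated and 4.11 ± 0.45 (limma adjusted p = 1.46e-05) in non-ablated mice. Anln, the cleavage furrow protein anillin, also known as a scaffold of septins in myelin, fell. It had 794, 1264, 1087 and 966 normalized counts in ablated lesions, against 9863, 10082, 6701 and 8559.8 in ablated distal tissue (-3.10 ± 0.20, limma adjusted p = 2.16e-07), and 1091, 831 and 735 in non-ablated lesions, against 8019, 8219.6 and 6283 in non-ablated distal tissue (-3.09 ± 0.24, limma adjusted p = 1.26e-06). Nde1, a dynein partner at centrosomes and kinetochores, fell, with log2 fold changes of -1.67 and -1.36 (limma adjusted p = 0.000313 and 0.00497). The myelin gene list fell in the same lesions, as given above, and its part in these falls was not tested.

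Ablation in lesions called 0 of these 80 genes with limma (2 at an unadjusted p under 0.05), with a median of -0.57, and the groups were separate and lower for 21, where 8.36% of all genes were. Sass6, a protein of the centriole cartwheel, was nearest to passing, with 546, 389.6, 599 and 535 normalized counts in ablated lesions, against 1165, 1226 and 1189 in non-ablated lesions (-1.22 ± 0.25, limma adjusted p = 0.0695). In distal tissue 1 rose, Kif22, a chromosome kinesin (Entrez 110033; chromosome 7, 127027729 to 127042467). It had 925, 934, 586 and 566 in ablated distal tissue, against 85.9, 47.4 and 112 in non-ablated distal tissue, without overlap (3.23 ± 0.35, limma adjusted p = 0.00154). With 2250.4, 1206, 896 and 1307 in ablated and 1752, 2009 and 1664 in non-ablated lesions, its lesion response was 0.87 ± 0.32 (limma adjusted p = 0.0573) in ablated and 4.53 ± 0.37 (limma adjusted p = 1.95e-06) in non-ablated mice, an interaction of -3.66 ± 0.49 (limma adjusted p = 0.0383). That call was lost when any library other than 5, 8 or 11 was left out (limma adjusted p = 0.0548 to 0.304). Hmmr, a spindle protein, differed by 3.21 ± 0.68 in distal tissue but did not pass (limma adjusted p = 0.0663).

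Genes that act before mitosis were looked up in the same way. Over all tested genes, 16.1% rose and 13.8% fell in lesions of ablated mice, and 14.7% rose and 13.3% fell in those of non-ablated mice. Of 16 tested regulators of mitotic transcription, 8 rose and 1 fell in ablated mice and 10 rose in non-ablated mice. E2f7, a late repressor of the E2F family, rose by 3.76 ± 0.56 (limma adjusted p = 0.000156) and 5.13 ± 0.65 (limma adjusted p = 5.01e-05), and E2f1, an activator of S phase genes, by 1.62 and 2.77 (limma adjusted p = 0.00257 and 0.000149). The gene that fell, Lin52, a subunit of the DREAM complex, had 621, 527, 636 and 474 normalized counts in ablated lesions, against 831, 2528, 972 and 1363 in ablated distal tissue (-1.20 ± 0.36, limma adjusted p = 0.0215). Of 8 G1 cyclins and CDKs, 4 rose in ablated and 5 in non-ablated mice. Cdk6, a G1 kinase, rose by 3.16 ± 0.31 (limma adjusted p = 4.31e-06) and 2.42 ± 0.36 (limma adjusted p = 0.000177), and Cdk4, its relative, by 1.56 and 1.55 (limma adjusted p = 5.28e-05 and 0.00023). Of 13 replication genes, 9 rose in ablated and 10 in non-ablated mice, among them Mcm2, part of the replicative helicase (1.71 and 2.67, limma adjusted p = 0.00111 and 0.000125). Of 6 tested CDK inhibitors, Cdkn2c rose in both genotypes (3.18 and 3.62, limma adjusted p = 0.00594 and 0.00731) and Cdkn2a in non-ablated mice (2.83 ± 0.99, limma adjusted p = 0.0466). Ablation called none of the genes of these 4 lists with limma in lesions or distal tissue. At an unadjusted p under 0.05 there were 0 of 16 regulators, 0 of 8 G1 genes, 1 of 6 inhibitors and 1 of 13 replication genes in lesions, where 7.21% of all genes were. In distal tissue there were 0, 1, 0 and 2, where 9.69% of all genes were.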

How the data were processed

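Per the labels' protocols, RNA of a stated RIN over 0.68 was copied to cDNA, amplified whole (multiple displacement amplification, Qiagen) and sequenced for 75 cycles. Such amplification may make low genes vary more. Of tools, bcl2fastq, BWA 0.7.17.1 and DESeq2 stand in the submitters' processing notes, with the mm10 build. How reads were counted, by strand or not, and on which annotation is not given in the sources used here. These values are a deposited signal, gene counts scaled by the authors with 1 size factor for each library (normalized counts), per the labels and the values. In each column all values (100%) were whole multiples of the smallest, within 0.01, which gives 23601763 to 30844575 reads per library. In library 1 the smallest value is too close to 1 to tell scaling from rounding. A listed 0 allows up to 3 reads; this covers counting error alone, since amplified reads carried no molecular identifiers.

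Titles gave the groups. Genes were tested with limma 3.58.1 (trend; R 4.3.3) on log2(normalized count + 1) for the 15637 genes that reached 10 normalized counts in 3 or more libraries. Fold changes on this scale understate the change of low genes. A single fit of 4 group means over 14 libraries gave 5 comparisons, with Benjamini-Hochberg adjustment over all 15637 genes in each and calls at an adjusted p under 0.05. Adjusted p-values of genes are limma's; ± after a log2 fold change is its standard error. Each gene has 1 spread over the 4 groups. Replicate libraries differed by more than sampling noise (chi-square per degree of freedom at least 33.2). Nothing says that pools of a group were processed apart, so p-values measure the spread between these libraries. Alternatives were TMM and upper-quartile scaling, pseudocounts of 0.5 and 10, a filter at 50 or none, array weights, only the groups compared, the age label as a covariate, edgeR 4.0.16 and DESeq2 1.42.0 on recovered reads, each library left out, and libraries 5 and 6 left out together.

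The members and the gene lists were chosen with earlier results of these data known. Named in the text are the members and, from other mitosis genes, the 4 per comparison, and from the other lists the 2 per comparison, with the smallest p; not all of these are described. The fits were tested on simulated data. Coordinates are those of RefSeq GRCm38.p6, matched by Entrez number for 33 of 33 members, and 1-based; mm10 is the same assembly. Exon lengths and overlaps are from GENCODE M21.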

Additional observations from a re-analysis of the deposited data

Results flagged for a closer look

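In each group of 4 libraries, every member was checked for a library far from the other 3, by the gap to its nearest neighbour over the group's range. The limit used marks about 1 in 20 groups of independent, normally distributed values. Counts were checked without taking logs, and members vary together, so that rate need not hold here. In all, 10 of 66 checks were marked, and 6 of the 10 were in distal library 9 of the ablated mice. There Ccnb1 stood at 499.5 normalized counts (21.9 to 64.3 in the other 3 libraries), Ccnb2 at 1047 (52.2 to 214), Aurka at 782 (79.5 to 168), Cdc20 at 85.2 (24.1 to 34.4), Ndc80 at 124 (5.93 to 13.7) and Mki67 at 1275 (17.8 to 126). The same library was the lowest of its group for 14 members and the highest for 12, so it was not high in the whole set.

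The other 4 were spread over 3 libraries. Ube2c stood at 3589 in lesion library 8 (1656 to 1974 in the other ablated lesions), Nuf2 at 248 in distal library 13 (43.4 to 68.4), and Kif20b at 34.7 and Kif2c at 392 in distal library 11 (0 to 4.75 and 5.01 to 33.1). Groups of 3 libraries were not checked, so the value of 1061 for Kif4 in distal library 1 is given only as a value.

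The lesion response of Kif22, which is no member, differed between the genotypes by the interaction test, with an estimate of -3.66 ± 0.49 (limma adjusted p = 0.0383). It came with 566 to 934 normalized counts in ablated distal tissue and 47.4 to 112 in non-ablated distal tissue, while the lesions overlapped.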

How the results depend on the processing

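Low counts and spread limit distal tissue most, where most members had lower counts than in lesions. No paired analysis was possible because no replicate number is shared between groups and the labels tie no lesion piece to a distal piece; consecutive library numbers were not taken as pairs. The number of members called in the lesion response was 24 to 30 in ablated mice (25 to 31 with 1 library left out) and 28 to 31 in non-ablated mice (28 to 31), against 27 and 30, all higher. Over all genes, in either direction, the response called 3938 to 5504 in ablated mice (3661 to 4742 with 1 library left out), against 4678. In non-ablated mice it called 2989 to 6109 (3061 to 4007), against 4374. In lesions, ablation called 3 members with array weights, all lower, and 0 under each other setting. In distal tissue it called 2 with array weights, 7 with DESeq2 and 0 to 2 with 1 library left out; in the interaction 4 were called with DESeq2 and 0 to 1 with 1 library left out. The cause of these differences was not tested.

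Kif11 changed sign in the response of ablated mice, to 0.0028 with upper-quartile scaling, 0.19 with array weights and 0.031 with the age label as covariate, and lay between -0.30 and 0.30 with 1 library left out; in non-ablated mice it lay between -0.44 and 0.053, above 0 only without distal library 5. Kif4 in the response of non-ablated mice was -0.017 with edgeR. In distal tissue Cdkn2d under ablation was -0.026 to 0.44 with 1 library left out, below 0 only without library 3, and Cdkn1a was -0.60 to 0.060, above 0 only without library 5 (0.060 also without libraries 5 and 6). None of these values passed the test. The median log2 fold change of the members ranged, over all settings and left-out libraries, from 2.38 to 3.11 and from 3.83 to 4.63 in the 2 lesion responses (ablated, non-ablated), from -0.83 to -0.48 for ablation in lesions, from 0.32 to 0.88 in distal tissue and from -1.62 to -1.03 in the interaction. Over all genes, ablation in lesions called 2 to 1013 genes, with 46 in the fit reported, in distal tissue 0 to 532, with 57, and the interaction 0 to 97, with 2.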
